A study of Mus musculus with 18 samples.

Results

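The 10 genes described here encode the transcription factors and matrix proteins of cartilage: Sox5, Sox6, Col2a1, Col9a1, Col9a3, Col11a1, Acan, Hapln1, Matn1 and Matn4. They were taken by symbol from tables of 23420 genes each, and all 10 were present. RNA-Seq was performed on whole lungs of mouse embryos in 3 experiments with 6 libraries each, 3 from mutant and 3 from control lungs. In the first experiment, at E12.5 (embryonic day, counted in days post coitus), Vangl1-/-; Vangl2-/- lungs were compared with Vangl1-/- controls, so that both groups were mutant for Vangl1 by their labels and differed in Vangl2. Vangl1 and Vangl2 encode membrane proteins of planar cell polarity, and the Vangl1 allele is a gene trap. In the second, also at E12.5, Wnt5af/f; Dermo1Cre lungs were compared with Wnt5af/+; Dermo1Cre controls. Dermo1Cre is a Cre knock-in at Twist2 that is active in the mesenchyme. In the third, at E13.5, Wnt5af/f; Sox9Cre lungs were compared with Wnt5af/+; Sox9Cre controls. Sox9Cre, a knock-in at Sox9, was used by the study to remove Wnt5a from the epithelium. Both kinds of Wnt5a control carried the Cre and 1 floxed Wnt5a allele. Sox9 is also expressed by the progenitors of cartilage, and Twist2 by mesenchyme outside the lung.

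In the airways, cartilage forms from the ventral and lateral mesenchyme of the trachea and main bronchi, as rings and plates that hold the airway open. SOX9 starts the program, and SOX5 and SOX6 assist it at the genes of the matrix. The matrix consists of fibrils of collagen II and collagen XI, with collagen IX on their surface, and of aggrecan, which is held on hyaluronan by the link protein HAPLN1. Matrilins connect these components. Condensation of the mesenchyme comes first, and a matrix rich in aggrecan and matrilin 1 marks more mature cartilage. The question was whether the cartilage genes differed between mutant and control lungs, and between controls of the earlier and the later stage.

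The deposited values are called normalized counts here: gene counts, each scaled by the authors with 1 size factor per library. Between 15945393 and 19814346 reads per library lay on genes. The labels do not state whether the 3 libraries of a group came from separate embryos, and p-values therefore measure the spread between these libraries. Markers of lung tissue summed to between 26232 and 31963 normalized counts in the 18 libraries. Vangl2 fell in the Vangl1/2 mutants, from 339 ± 64.9 to 85.3 ± 5.01 normalized counts (SD, n = 3; adjusted p = 0.0318, limma). Vangl1 RNA was present in all 6 libraries of that experiment, with 162, 219 and 113 normalized counts in the controls and 239, 274 and 242 in the mutants. The groups did not overlap for Vangl1 (difference 0.65 on the log2 scale, SE 0.23, adjusted p = 0.233, limma), and the Wnt5a experiments, which were normalized separately, had between 409 and 508. The counts per gene do not show which part of the Vangl1 transcript the reads came from. Wnt5a was at 464 ± 30.8 in the Dermo1Cre controls and 327 ± 103 in the mutants (adjusted p = 0.406, limma), and at 451 ± 23.5 and 417 ± 48.0 in the Sox9Cre experiment (adjusted p = 1.0). In these bulk samples, fewer cells of a type and less RNA per cell cannot be told apart.

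RefSeq (GRCm38.p6) gave promoter sequences for 8 of the 10 genes, all but Col2a1 and Col9a3. The windows below hold the 250 bases before an annotated start, 5′ to 3′ on the strand of the gene. They were chosen because the results separate the pair Sox5 and Sox6 from matrix genes such as Col9a1 and Acan, and because no exon of the GENCODE annotation lies in them. The capitals mark the letters ACAAAG or ACAATG on either strand (CTTTGT or CATTGT), to which SOX proteins can bind. Sox5 itself spans chr6:143828425-144781977, Sox6 chr7:115470872-116038796, Col9a1 chr1:24177610-24252684 and Acan chr7:79053483-79115099 in GRCm38. The window of Sox5 lies at chr6:143947107-143947356 on the minus strand and starts a shorter transcript inside the gene. That of Sox6 lies at chr7:115824711-115824960 on the minus strand, also inside the gene. Among the Sox6 windows without an exon, it held the most of these letters, and the window at chr7:115801610-115801859 held none. Those of Col9a1, at chr1:24177360-24177609, and of Acan, at chr7:79052976-79053225, are on the plus strand.
Sox5: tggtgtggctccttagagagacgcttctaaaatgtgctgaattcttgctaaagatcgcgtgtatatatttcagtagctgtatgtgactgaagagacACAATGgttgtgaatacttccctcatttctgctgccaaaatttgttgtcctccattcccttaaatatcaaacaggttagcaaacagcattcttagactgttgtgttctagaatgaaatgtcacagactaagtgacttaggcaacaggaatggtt
Sox6: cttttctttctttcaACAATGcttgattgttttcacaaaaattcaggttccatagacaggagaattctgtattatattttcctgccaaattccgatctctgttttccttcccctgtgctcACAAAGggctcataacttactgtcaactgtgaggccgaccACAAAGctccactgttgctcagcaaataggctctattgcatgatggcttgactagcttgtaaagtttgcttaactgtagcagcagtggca
Col9a1: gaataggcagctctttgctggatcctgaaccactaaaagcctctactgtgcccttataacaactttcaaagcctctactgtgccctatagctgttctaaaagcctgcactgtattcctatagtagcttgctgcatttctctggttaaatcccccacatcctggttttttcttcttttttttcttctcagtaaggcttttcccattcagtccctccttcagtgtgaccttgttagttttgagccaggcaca
Acan: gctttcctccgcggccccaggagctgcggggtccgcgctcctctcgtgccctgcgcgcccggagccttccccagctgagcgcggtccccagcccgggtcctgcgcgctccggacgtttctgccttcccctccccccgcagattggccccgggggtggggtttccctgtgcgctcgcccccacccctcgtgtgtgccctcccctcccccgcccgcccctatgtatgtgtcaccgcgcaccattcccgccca

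The 1 window of Sox5 and 5 of the 6 windows of Sox6 held these letters. They were absent from the 2 windows of Col9a1, the 2 of Matn4 and the 1 window each of Col11a1, Matn1, Acan and Hapln1. Col11a1, whose window also held no exon, went with Sox5 and Sox6 across the 18 libraries (Pearson's r 0.81 and 0.76). The letters thus did not divide the genes as their levels did. Of all 32851 windows of this length, 25.2% held the letters. The GC content was 39.6% for Sox5 and 41.6% for the Sox6 window shown, 43.6% for Col9a1 and 74.4% for Acan, against a median of 52.4% over all windows. These are matches of letters and not binding sites, and their absence says only that the letters are not in these windows.

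Levels of the genes can be compared after division by the length of the longest transcript. In the controls of the Dermo1Cre experiment, Hapln1 had 339 ± 34.2 normalized counts per kb (SD, n = 3) and Col2a1 had 287 ± 14.9, and the ranges of the pair, 307 to 375 and 272 to 302, did not overlap. Col11a1 followed with 184 ± 9.95, Matn4 with 82.9 ± 1.54 and Col9a3 with 65.1 ± 2.83. Sox5, at 52.8 ± 1.80, Col9a1, at 49.0 ± 2.15, and Sox6, at 42.3 ± 1.32, formed the next group, in which the ranges of neighbours did not overlap. Acan was at 1.54 ± 0.0834 per kb, and Matn1 was at 0. In the other control groups Col2a1 and Hapln1 again had the 2 highest levels, followed by Col11a1, Matn4 and Col9a3, and Col9a1 overlapped there with both Sox5 and Sox6.

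Acan and Matn1 were close to the limit of detection. Acan had 251 reads in all 18 libraries, with 28 in the highest. Matn1 had 3 reads in all, 1 each in controls 1 and 2 of the Vangl1/2 experiment and in mutant 2 of the Dermo1Cre experiment. The 15 other libraries were at 0, and a count of 0 allows up to 3 reads, for counting error only. The lungs thus held RNA of the collagens, link protein and matrilin 4 but little aggrecan and hardly any matrilin 1. Other cartilage genes covered a wide range in the same libraries. Col10a1, Snorc and Ucma stayed below 4 normalized counts in every library, and Chad lay between 6.20 and 17.8. Epyc lay between 23.0 and 74.4, Cnmd between 30.2 and 99.5 and Prg4 between 7.23 and 170. Others were higher: Col11a2 lay between 118 and 280, Col9a2 between 310 and 596 and Col27a1 between 1176 and 2377.

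**Figure D1:**
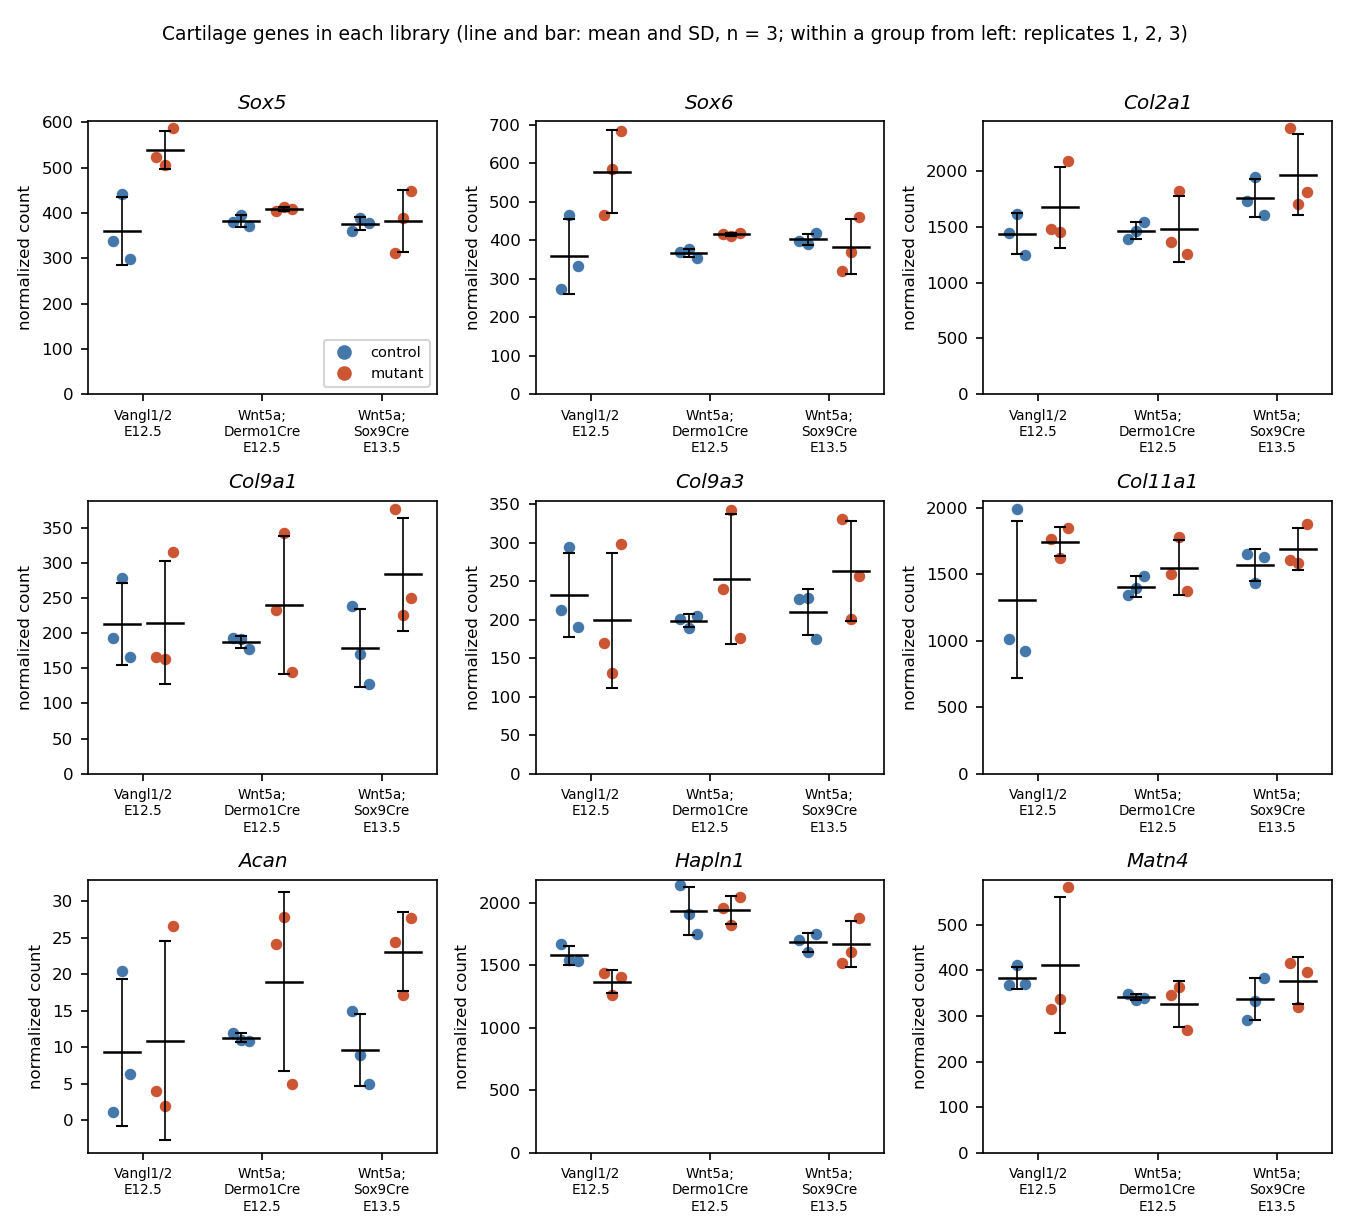
Normalized counts (linear axis) of 9 cartilage genes in each library of the 3 experiments, with controls in blue and mutants in red; lines and bars are the mean and SD of 3 libraries. The Vangl1/2 mutants lie above their controls for Sox5, while Col9a1, Col9a3 and Acan spread widely among the Dermo1Cre mutants.

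Vangl1/2 mutant lungs had more Sox5 and Sox6 RNA and less Hapln1 RNA than their controls on average, but none of the differences passed the test. Of the 10 genes, 8 had at least 10 normalized counts in 3 libraries and were tested, and 0 had an adjusted p under 0.05, as against 0.00699% of the 14303 genes tested, which is Vangl2 alone. At an unadjusted p under 0.05, 2 of the 8 were higher in the mutants, Sox5 and Sox6, beside 12.0% of all genes, and 0 were lower, beside 8.56%. By edgeR and DESeq2, 0 of the 8 passed as well. The median difference of the 8 was 0.13 on the log2(normalized count + 1) scale, which is used for all differences here, and -0.0093 over all genes. This median was -0.012 after correction for a trend on transcript length and -0.097 without mutant 3, so that its direction turned. It was 0.067 without control 3, and 0.24, 0.25 and 0.23 without control 2, mutant 1 and mutant 2. The difference was above 0 for 5 of the 8, beside 48.8% of all genes.

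Sox5, a partner of SOX9 in cartilage, had 339, 443 and 298 normalized counts in controls 1 to 3 and 523, 507 and 587 in mutants 1 to 3. The groups did not overlap, as for 13.6% of all genes in this direction. The difference was 0.60 (SE 0.16, adjusted p = 0.233, limma). Sox6, which acts redundantly with Sox5, had 274, 466 and 334 in the controls and 466, 586 and 683 in the mutants, so that control 2 reached mutant 1. Its difference was 0.71 (SE 0.21, adjusted p = 0.233, limma). Sox9 itself differed little, with 1479, 1411 and 1395 in the controls and 1530, 1394 and 1663 in the mutants (adjusted p = 0.564, limma).

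Among the collagens, Col11a1 had 1015, 1992 and 921 normalized counts in the controls and 1770, 1627 and 1846 in the mutants. Control 2 was the highest of the 6, and the difference was 0.50 (SE 0.26, adjusted p = 0.286, limma). Col2a1, the main collagen of cartilage, had 1442, 1615 and 1250 in the controls and 1478, 1450 and 2089 in the mutants, of which mutant 3 stood above the rest. Col9a1 had 194, 279 and 167 against 166, 163 and 317, and Col9a3 had 212, 294 and 191 against 169, 130 and 298. For both collagen IX genes control 2 and mutant 3 were high and the other 4 libraries low, and the groups overlapped. Adjusted p-values of Col2a1, Col9a1 and Col9a3 were 0.453, 0.963 and 0.577 (limma).

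Of the remaining matrix genes, Hapln1 had 1668, 1545 and 1533 normalized counts in the controls and 1436, 1263 and 1410 in the mutants. All mutants were below all controls, as for 8.68% of all genes, with a difference of -0.21 (SE 0.094, adjusted p = 0.25, limma). Matn4 had 369, 412 and 371 in the controls and 316, 337 and 583 in the mutants, again with mutant 3 on top (adjusted p = 0.91, limma). Acan, which was too low for the test, had 1, 22 and 6 reads in the controls and 4, 2 and 27 in the mutants, so that control 2 and mutant 3 were again the high ones.

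Control 2 stood with the mutants in this experiment. Along the leading axis of a principal component analysis (51.7% of the variance), controls 1 and 3 were at -30.1 and -44.7, control 2 at 17 and the mutants between 15.1 and 21.5. Without control 2, 4 of the 8 genes passed the test, beside 43.2% of all genes: Sox5 (0.76, adjusted p = 0.000461), Sox6 (0.92, adjusted p = 0.0012), Col11a1 (0.85, adjusted p = 8.07e-05) and Hapln1 (-0.23, adjusted p = 0.0486, all by limma). The share of the cartilage genes is thus near that of all genes. Control 2 was singled out on these same data as the control most like the mutants. Leaving it out sets the groups apart, and these p-values are therefore no support for a difference.

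**Figure D2:**
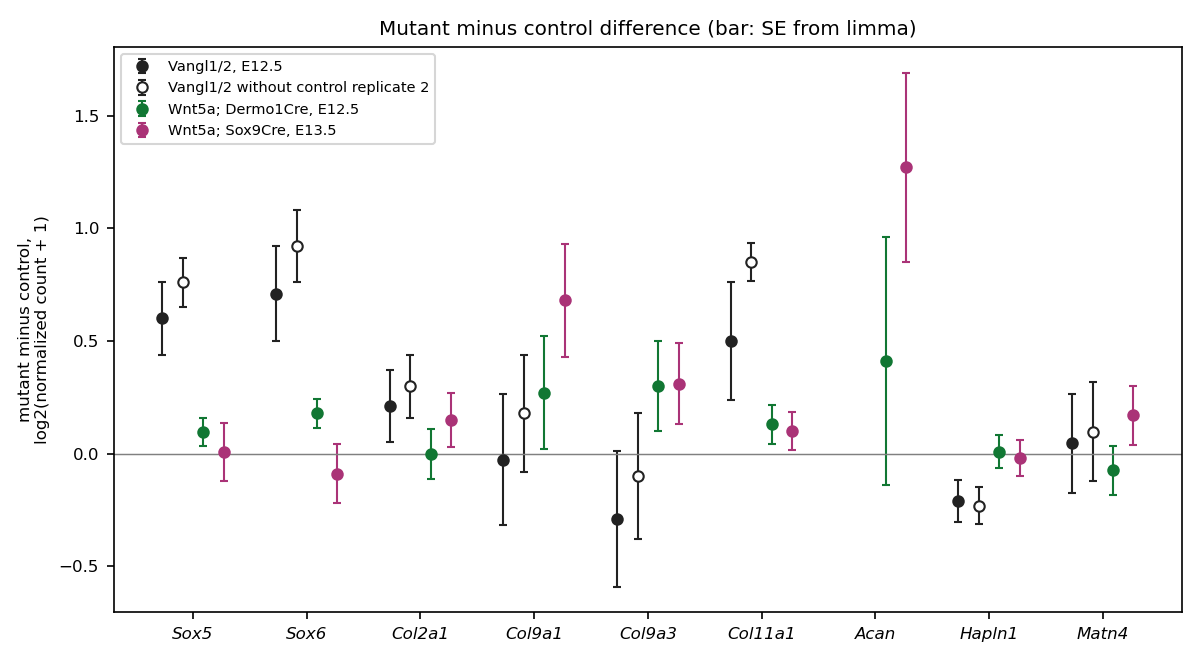
Mutant minus control difference of each cartilage gene on the log2(normalized count + 1) scale, with the SE from limma as the bar, in the 3 experiments; open symbols leave out control 2 of the Vangl1/2 experiment. Without that control, Sox5, Sox6 and Col11a1 stand at 0.76, 0.92 and 0.85 and Hapln1 at -0.23.

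The differences between Vangl1/2 mutants and controls followed the length of the transcript. Across the genes tested, Spearman's rho between length and difference was 0.678, as a description over genes of the same libraries. Sox5, Sox6 and Col11a1 have long transcripts of 7.24, 8.67 and 7.67 kb, and the 782 genes of 7 to 9 kb had a median difference of 0.41 (quartiles 0.27 and 0.54). Hapln1, at 5.72 kb, lay on the other side of this trend. With the trend on length removed from each library, Sox5 was at 0.25, Sox6 at 0.29 and Col11a1 at 0.13, whereas Hapln1 was at -0.45 (SE 0.12, adjusted p = 0.537, limma). With the trend removed and control 2 left out, Hapln1 (-0.58, adjusted p = 0.00141) and Col11a1 (0.32, adjusted p = 0.0209, limma) passed the test, beside 16.3% of all genes. Here, too, control 2 was singled out on the same data, and the p-values without it are no support for a difference. In the Wnt5a experiments the same rho was 0.249 with Dermo1Cre and -0.0162 with Sox9Cre. Where the trend comes from was not tested.

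**Figure D3:**
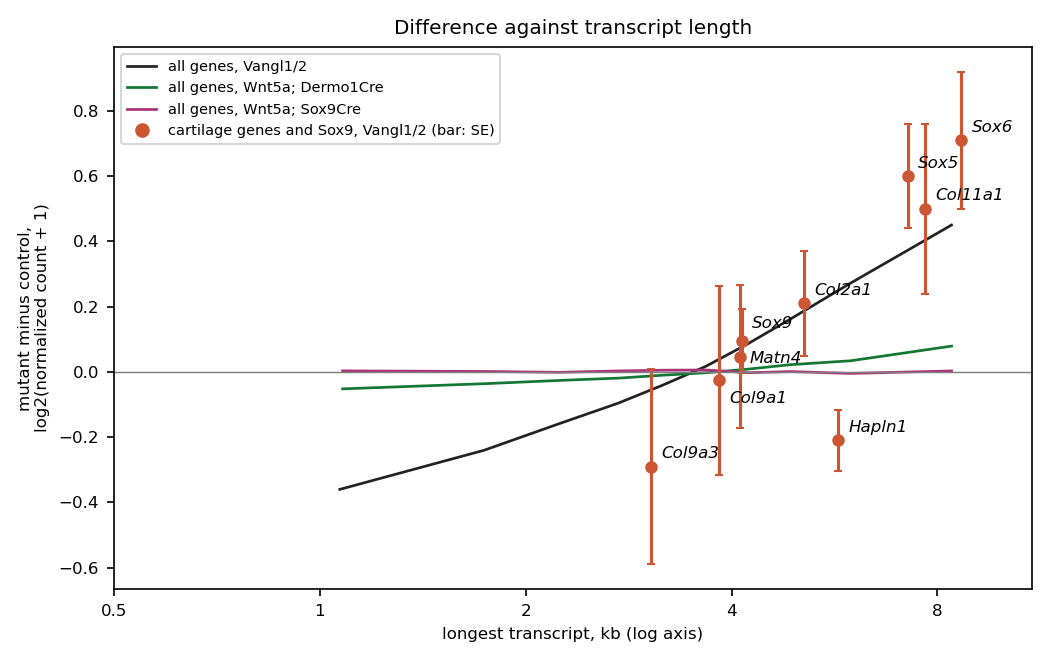
Mutant minus control difference (log2 of normalized count + 1) of the cartilage genes and Sox9 in the Vangl1/2 experiment against the length of the longest transcript in kb (log axis), with SE bars; lines are medians of all genes in bins of length for each experiment. Sox5 lies above the Vangl1/2 line and Hapln1 below it, while the SE bar of Col11a1 crosses the line. Sox6, at 8.67 kb, lies past the end of the line and above its last value of 0.45.

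When Wnt5a was targeted in the mesenchyme by Dermo1Cre, Sox5 and Sox6 were slightly higher in all 3 mutants, and Col9a1, Col9a3 and Acan varied more among the mutants than between the groups. Of the 10 genes, 9 were tested and 0 had an adjusted p under 0.05 by limma, edgeR or DESeq2, as against 0.014% of 14277 genes by limma. At an unadjusted p under 0.05, 1 of the 9 was higher, Sox6, beside 5.42% of all genes, and 0 were lower, beside 4.76%. The median difference was 0.13, and 0.00071 over all genes, and 7 of the 9 had a difference above 0, beside 50.3%. The median was 0.028 without mutant 2 and 0.046 after the length correction.

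Sox6 had 369, 377 and 355 normalized counts in the controls and 415, 412 and 420 in the mutants. Its groups were apart, with a difference of 0.18 (SE 0.064, adjusted p = 0.416, limma). The difference was 0.087 (SE 0.074, adjusted p = 0.801) with the trend on transcript length removed. Sox5 had 381, 396 and 371 in the controls and 405, 413 and 408 in the mutants (difference 0.096, SE 0.064, adjusted p = 0.637, limma), and its difference was 0.016 (SE 0.073, adjusted p = 0.972) with the trend removed. These were 2 of the 9 genes with all mutants above all controls, which held for 7.65% of all genes, and 0 had all mutants below, beside 7.92%. Sox9 had 1648, 1697 and 1588 in the controls and 1390, 1596 and 1440 in the mutants. Its difference of -0.16 had the smallest p of the other chondrogenic genes (adjusted p = 0.426, limma).

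The collagens, Acan and Matn4 came in the order mutant 2, mutant 1, mutant 3 among the Dermo1Cre mutants. Col9a1 had 193, 192 and 178 normalized counts in the controls and 234, 343 and 145 in mutants 1 to 3. Col9a3 had 201, 189 and 205 in the controls and 240, 343 and 176 in the mutants. Mutants 1 and 2 lay above and mutant 3 below the controls for both genes, the subunits of collagen IX. Acan had 12, 11 and 11 reads in the controls and 24, 28 and 5 in the mutants, in the same order. Col2a1 had 1390, 1457 and 1542 in the controls and 1366, 1817 and 1257 in the mutants, and Matn4 had 348, 335 and 340 against 347, 364 and 269. Differences were 0.27 for Col9a1, 0.30 for Col9a3, 0.41 for Acan, -0.00020 for Col2a1 and -0.074 for Matn4, and their adjusted p-values were 0.636 or above (limma). Without mutant 2, Col9a1 stood at -0.028 and Acan at -0.0026, and without mutant 3 at 0.59 and 1.13 (adjusted p = 0.558 for both, limma).

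Col11a1 had 1341, 1394 and 1491 normalized counts in the controls and 1500, 1779 and 1372 in the mutants, again with mutant 2 highest (difference 0.13, adjusted p = 0.628, limma). Hapln1 did not follow this order, with 2142, 1911 and 1754 in the controls and 1963, 1821 and 2048 in the mutants (difference 0.0094, adjusted p = 0.974, limma). Wnt5a had the same order in the mutants as the collagens, Acan and Matn4, with 436 in mutant 2, 317 in mutant 1 and 230 in mutant 3. This is an order of 3 libraries seen afterwards, and a link between Wnt5a and these genes was not tested.

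When Wnt5a was targeted by Sox9Cre, Col9a1 stood higher in the mutants at E13.5 by 0.68 and Acan by 1.27, with none of the differences past the adjusted test. Acan met the filter on low values through its 3 mutants, the group in which it was high, and its count and test are therefore no support for a difference. Of the 10 genes, 9 were tested and 0 had an adjusted p under 0.05, as against 0.0% of 14293 genes (0 by limma and by edgeR, and 9 by DESeq2, none of them a cartilage gene). At an unadjusted p under 0.05, 557 genes passed by limma, and Col9a1 and Acan were the 2 of the 9 cartilage genes among those higher in the mutants, beside 1.08% of all genes, while 0 were lower, beside 2.81%. The median difference was 0.15, and 0.0013 over all genes, and it was 0.25 without mutant 2. A difference above 0 was found for 7 of the 9, beside 50.7% of all genes.

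Acan, which encodes aggrecan, had 15, 9 and 5 reads in the controls and 25, 17 and 27 in the mutants. All mutants were above all controls, as for 4.42% of all genes, while 0 of the 9 had all mutants below, beside 4.36%. Its difference was 1.27 (SE 0.42, adjusted p = 1.0, limma). In the controls, 1 of the 3 libraries reached the 10 normalized counts of the filter. Col9a1 had 239, 170 and 128 normalized counts in the controls and 377, 227 and 250 in the mutants, so that control 1 lay within the mutants. Its difference was 0.68 (SE 0.25, adjusted p = 1.0, limma). Without mutant 1, the highest library for Col9a1, Col9a1 was at 0.46 (adjusted p = 0.517) and Acan at 1.21 (adjusted p = 0.428, limma). Without mutant 3, the highest library for Acan, Acan was at 1.13 (adjusted p = 0.895, limma).

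Col9a3 had 227, 228 and 175 normalized counts in the controls and 331, 201 and 257 in the mutants, and Col2a1 had 1726, 1943 and 1602 against 2381, 1704 and 1810. Mutant 1 was the highest library for both, and the groups overlapped. Matn4 had 292, 333 and 384 in the controls and 416, 320 and 397 in the mutants. Differences were 0.31 for Col9a3, 0.15 for Col2a1 and 0.17 for Matn4, with adjusted p-values of 1.0 (limma). Without mutant 1 they were 0.13, 0.0040 and 0.092. Col11a1 had 1654, 1433 and 1628 in the controls and 1611, 1586 and 1876 in the mutants (difference 0.10, SE 0.083).

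The transcription factors did not separate the groups in this experiment. Sox5 had 361, 390 and 379 normalized counts in the controls and 311, 389 and 448 in the mutants, and Sox6 had 397, 391 and 419 against 319, 369 and 460. In both genes mutant 1 was the lowest and mutant 3 the highest of the 6 libraries, with differences of 0.0082 for Sox5 and -0.088 for Sox6. Sox9, the locus that carries the Cre in both groups, had 1346, 1549 and 1143 in the controls and 1158, 1156 and 1155 in the mutants (difference -0.21, adjusted p = 1.0, limma). Hapln1 had 1700, 1605 and 1755 in the controls and 1521, 1609 and 1876 in the mutants (difference -0.020).

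Single libraries held the highest values of many cartilage genes at once. In the Vangl1/2 experiment, mutant 3 was the highest library for 7 of the 9 genes that had more than single reads, and it was the highest for 17.7% of all genes. In the Dermo1Cre experiment, mutant 2 was the highest for 7 of the 9, and for 15.2% of all genes. In the Sox9Cre experiment, mutant 1 was the highest for Col2a1, Col9a1, Col9a3 and Matn4, and mutant 3 for Sox5, Sox6, Col11a1, Acan and Hapln1, which were the highest libraries for 3001 and 3882 of 14293 genes. Of the other chondrogenic genes tested, mutant 3 of the Vangl1/2 experiment was the highest library for 5 of 24 and mutant 2 of the Dermo1Cre experiment for 6 of 24, nearer to the shares of all genes. With Sox9Cre, mutants 1 and 3 were the highest for 10 and 8 of 23. The genes of a library are not independent of each other, and these counts are given as a description.

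**Figure D4:**
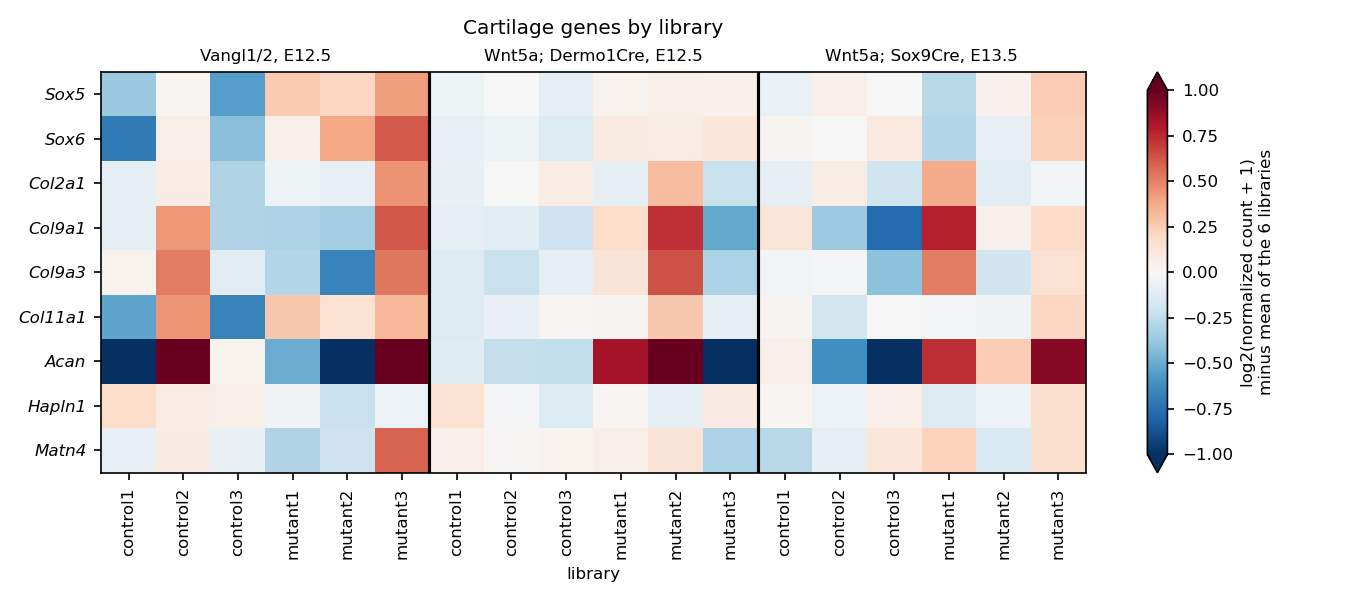
Difference of each library from the mean of the 6 libraries of its experiment, on the log2(normalized count + 1) scale, for 9 cartilage genes (color; values beyond 1 are cut off, as for Acan). Col9a1, Col9a3 and Acan are high in control 2 and mutant 3 of the Vangl1/2 experiment and in mutant 2 of the Dermo1Cre experiment, while Sox5 separates the Vangl1/2 groups and Sox6 does so but for control 2, which is level with mutant 1.

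Across the 18 libraries, each centred on its experiment, the genes fell into pairs and groups. Sox5 and Sox6 had a Pearson's r of 0.90, and Col11a1 went with them (0.81 with Sox5 and 0.76 with Sox6). Col9a1 had an r of 0.89 with Col9a3, 0.82 with Acan and 0.79 with Col2a1. Sox5 and Col9a3 had an r of -0.0048, and Hapln1 had values of 0.026 or below with each of the other 8 genes. These are descriptions over 18 libraries that share their group, depth and experiment, and the Vangl1/2 libraries also share the trend on length. Beyond the 10 genes, the mean pattern of the cartilage genes was most like that of Kcna2 (r = 0.91), a potassium channel gene, and of Dnm3os, 2310015A10Rik, Syn3 and 5930403L14Rik (0.85 each), among 13965 genes compared. Eya4 and Chrd, which encodes the BMP antagonist chordin, followed at 0.84, and Susd5 at 0.83. Of the genes themselves, Acan was closest to their mean at 0.84, and Hapln1 was at -0.062. Each gene is part of this mean, which raises its own value. Matn1, with 3 reads in all, counts in the mean as much as the others.

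Markers of tissues around the lung varied between the same libraries. The summed level of 7 skeletal muscle markers was 1444 normalized counts in mutant 2 of the Dermo1Cre experiment and between 69.3 and 593 in its other libraries. Myog and Myod1, the regulators of muscle differentiation, reached at most 226 and 129 in the 18 libraries. The muscle sum was 1333 in mutant 1 of the Sox9Cre experiment and between 47.2 and 643 in the others. These are the libraries with the highest Col2a1, Col9a1, Col9a3 and Matn4. In the Vangl1/2 experiment it was at most 118, in control 2, and 39.4 in mutant 3. There, mutant 3 had the highest sums of 6 neuron markers, at 914 against 404 to 667 in the others, and of 5 markers of glia and neural crest, at 1190 against 672 to 1018. Neuron markers were also high in mutants 2 and 3 of the Dermo1Cre experiment, at 1654 and 1681, and mutant 1, at 767, was also above the controls, at 351 to 635. Mutant 3 of that experiment, with the highest neuron sum, had the lowest Col9a1, at 145. With Sox9Cre the neuron sum was highest in control 3, at 1278, where Col9a1 was lowest. It was 1233 in mutant 1, where Col9a1 was highest. Among the controls, the muscle sum was 593 in control 3 of the Dermo1Cre experiment, where Col9a1 was at 178 beside 192 and 193. In the Sox9Cre experiment it was 555 in control 1, which had the highest Col9a1 of the controls at 239, and 643 in control 3, which had the lowest at 128.

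Markers of other tissues were high in these libraries and in further ones. The sum of 7 markers of the oesophagus, thyroid and thymus, in which Krt13 and Foxe1 stayed below 10 in every library, was 153 in mutant 2 of the Dermo1Cre experiment and 273 in its control 3, with 45.2 to 62.5 in the rest. It was 222 in mutant 1 and 197 in control 1 of the Sox9Cre experiment, and 61.7 to 94.3 in the rest. In the Vangl1/2 experiment it was 170 in control 2 and 46.3 to 68.9 in the rest. The sum of 7 sclerotome and skeleton markers lay between 198 and 477. The highest were 325 in control 2 of the Vangl1/2 experiment, 366 in control 3 with Dermo1Cre and 477 in control 1 with Sox9Cre. In the library with the highest Col9a1, the sum was 283 (Vangl1/2 mutant 3), 223 (Dermo1Cre mutant 2) and 309 (Sox9Cre mutant 1). Of these 7 markers, Nkx3-2 reached 3.73 at most, Pax1 lay between 0 and 182 and Pax9 between 0 and 36.7. Runx2 lay between 47.5 and 96.6, Sp7 between 18.1 and 41.0, Ibsp between 5.59 and 42.6 and Alpl between 86.7 and 191. The sum of 4 tendon and perichondrium markers was 300, 317 and 370 in the Vangl1/2 controls and 213, 236 and 269 in the mutants. All mutants were below all controls, as for 8.68% of single genes in that experiment. This sum was not corrected for the trend on transcript length, and 0 of the 4 genes passed the adjusted test. It lay between 266 and 346 in the Wnt5a experiments, where the groups overlapped. The sum of 7 cardiomyocyte markers was highest in mutant 2 of the Vangl1/2 experiment, at 4365 against 240 to 2356, and in control 3 of both Wnt5a experiments, at 12606 against 297 to 3691 with Dermo1Cre and 11578 against 237 to 4840 with Sox9Cre. The sum of 7 airway smooth muscle markers lay between 7352 and 16537, that of 5 distal epithelium markers between 10328 and 13308 and that of 7 proximal epithelium markers between 1499 and 2346. The part of these tissues and cells in the values of the cartilage genes was not tested.

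**Figure D5:**
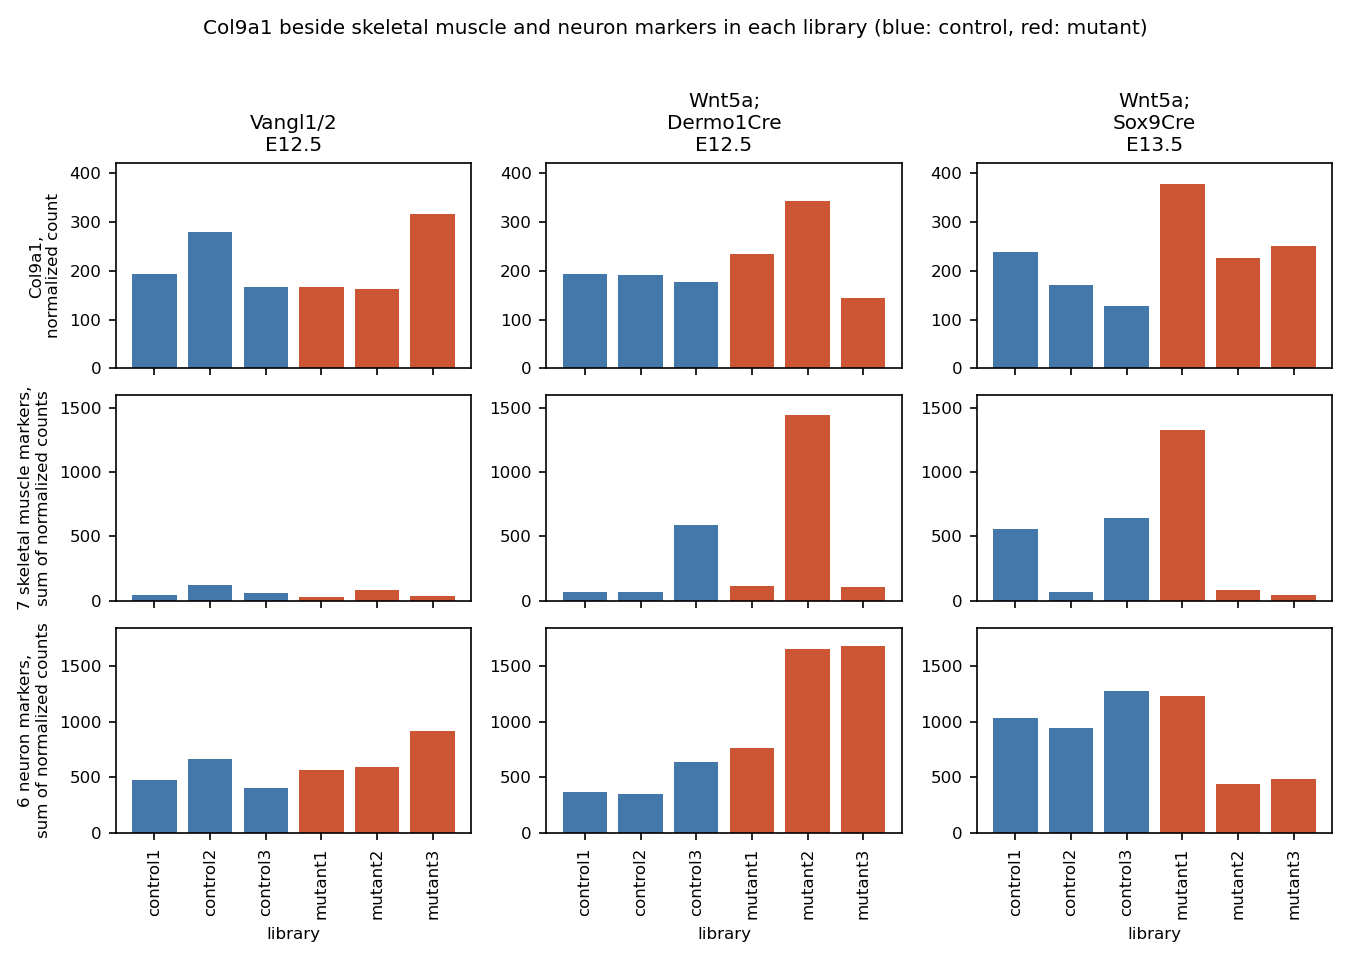
Normalized counts of Col9a1 (top), summed normalized counts of 7 skeletal muscle markers (middle) and of 6 neuron markers (bottom) in each library, with controls in blue and mutants in red (linear axes from 0). Mutant 2 of the Dermo1Cre experiment and mutant 1 of the Sox9Cre experiment have both the highest Col9a1 and the highest muscle sums (1444 and 1333), and mutant 3 of the Vangl1/2 experiment has the highest Col9a1 and neuron sum (914). In the Wnt5a experiments the highest neuron sums are in the libraries with the lowest Col9a1, mutant 3 with Dermo1Cre and control 3 with Sox9Cre.

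Of 32 other chondrogenic genes, 24 were tested in the Vangl1/2 experiment, 24 with Dermo1Cre and 23 with Sox9Cre, and 0 passed the adjusted test in each. At an unadjusted p under 0.05, 3 were higher and 1 lower in the Vangl1/2 mutants, beside 12.0% and 8.56% of all genes. With Dermo1Cre 1 was higher and 1 lower, beside 5.42% and 4.76%, and with Sox9Cre 3 were higher and 0 lower, beside 1.08% and 2.81%. Their median differences were 0.16, 0.086 and 0.086, beside -0.0093, 0.00071 and 0.0013 over all genes. With Sox9Cre, the 3 with the smallest p were Wwp2, a ubiquitin ligase (0.18), Fgfr3, a fibroblast growth factor receptor (0.19), and Col9a2, the remaining subunit of collagen IX (0.26). Col9a2 had 475, 393 and 413 normalized counts in the controls and 584, 472 and 477 in the mutants, so that control 1 overlapped with the mutants as for Col9a1. In the Vangl1/2 mutants they were Trps1 (0.50), a transcription factor of chondrocytes, Slc26a2 (0.67), the sulfate transporter needed for aggrecan, and Mia (-0.43), which cartilage secretes. With Dermo1Cre they were Sox9, Cnmd (0.36), which encodes chondromodulin, and Pcolce2 (-0.31). All adjusted p-values of these genes were between 0.233 and 1.0 (limma). The Vangl1/2 counts and differences of this list, too, were not corrected for the trend on transcript length, and control 2 was kept.

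All 21 tracheal patterning genes were tested in each experiment, and 0 passed the adjusted test. In the Vangl1/2 mutants, 7 were higher and 0 lower at an unadjusted p under 0.05, beside 12.0% and 8.56% of all genes, with Rspo2 (0.41), Fgf10 (0.64) and Gli3 (0.78) leading. Rspo2 had 1174, 1202 and 1138 normalized counts in the controls and 1734, 1517 and 1428 in the mutants (adjusted p = 0.233, limma). The Vangl1/2 counts and differences of this list were not corrected for transcript length, and control 2 was kept. Differences followed length in that experiment (Spearman's rho 0.678), and the part of length in these values was not tested. In the Dermo1Cre experiment, 1 was higher and 2 were lower, beside 5.42% and 4.76%. Those with the smallest p were Ror2, a receptor of WNT5A (-0.14), Rspo2 (0.17) and Tbx5 (-0.097). With Sox9Cre, 0 were higher or lower, beside 1.08% and 2.81%, and Wnt7b (0.087), Foxf1 (0.081) and Wls (-0.048) had the smallest p. The median differences were 0.17, -0.013 and 0.022, beside -0.0093, 0.00071 and 0.0013 over all genes.

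Of the cartilage genes, Col2a1 and Sox6 were higher in the controls at E13.5 than in those at E12.5, and the other genes overlapped. These are the same control libraries as in the Sox9Cre and Dermo1Cre comparisons, and since their tables were normalized separately and the stage cannot be told apart from the Cre line, the values are given without a test. Col2a1 was at 1463 ± 76.1 normalized counts at E12.5 and 1757 ± 173 at E13.5 (SD, n = 3), a difference of 0.26. Sox6 was at 367 ± 11.4 and 403 ± 14.5, a difference of 0.13. For these 2 of the 9 genes all later controls were above all earlier ones, beside 9.66% of all genes, and for 0 all were below, beside 4.12%. Among the remaining 7 genes were Col11a1 (1409 ± 76.3 and 1572 ± 121), Hapln1 (1936 ± 195 and 1686 ± 75.8) and Acan (11.3 ± 0.613 and 9.61 ± 4.97). Sox9 was lower in the later controls, at 1346 ± 203 against 1645 ± 54.5. When the Vangl1-/- controls, also of E12.5, were set beside them, with 1435 ± 183 for Col2a1, 358 ± 98.3 for Sox6 and 1428 ± 44.8 for Sox9, the stages overlapped for each of these genes. The median difference of the 9 genes was -0.023, and 0.021 over all genes.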

How the data were processed

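The authors extracted RNA from mouse embryonic lungs and sequenced it on Illumina instruments. Per the labels, they used Trim Galore, HISAT2, featureCounts and DESeq2 with build mm10, and no versions or strand setting are given. The deposited signal per library is a gene count divided by a size factor. All values were whole multiples of 1 step per library, with a largest deviation of 4.62e-05 reads, so reads were recovered. The tables also hold a mean, log2 fold changes and p-values of the authors' own comparison, which were not used.

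Normalized counts with a pseudocount of 1 were put on the log2 scale. Genes with at least 10 in 3 of the 6 libraries were tested with limma (version 3.58.1, R 4.3.3) with a mean-variance trend, and p-values were adjusted over all tested genes by the Benjamini-Hochberg method at 0.05. For a single gene, an exact permutation test of 3 against 3 reaches 0.1 at the least. The alternatives were edgeR (4.0.16) and DESeq2 (1.42.0) on recovered reads, no filter, a pseudocount of 5, removal of a trend on transcript length (GENCODE release 21), a replicate block and leaving out each library. The procedure was tested on simulated data.

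The members and lists were chosen with earlier results of these data known. Named are the 10 genes, Sox9, the targeted genes, the 3 genes with the smallest p of each list and the 8 genes most like the mean pattern. Libraries and promoter letters singled out were chosen after their values were seen. So were Col10a1, Snorc, Ucma, Chad, Epyc, Cnmd, Prg4, Col11a2, Col9a2 and Col27a1 where their levels are given. Sox5 shares up to 1330 bases of an exon with the antisense gene Sox5os1, Col9a3 234 with Tcfl5 and Matn4 124 with Rbpjl, and their reads may not be separated. Marker genes that met the filter were tested too, and 0 passed in each list. Of 7 skeletal muscle markers, 1, 4 and 5 were tested in the Vangl1/2, Dermo1Cre and Sox9Cre experiments. Of 7 markers of the oesophagus, thyroid and thymus, 2, 1 and 2 were tested, and of 7 sclerotome and skeleton markers 3, 4 and 4. Cardiomyocyte sums lay between 237 and 12606 normalized counts and smooth muscle sums between 7352 and 16537.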

Additional observations from a re-analysis of the deposited data

How the results depend on the processing

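The number of cartilage genes with an adjusted p under 0.05 was 0 in all 3 experiments under edgeR, DESeq2, no filter, a pseudocount of 5, the length correction and the replicate block. When single libraries were left out it stayed at 0 in the Wnt5a experiments and ranged from 0 to 4 in the Vangl1/2 experiment, where control 2 gave the 4. It was 2 with the length trend removed and control 2 left out, an alternative chosen after seeing the data. Over all genes, limma called 1, 2 and 0 genes in the Vangl1/2, Dermo1Cre and Sox9Cre experiments, and DESeq2 called 20, 100 and 9. The length correction gave 1 with Dermo1Cre. Leaving out single libraries gave 0 to 6183, 0 to 54 and 0 to 13 genes, of which 6183 without control 2 of the Vangl1/2 experiment, 54 without mutant 1 of the Dermo1Cre experiment and 13 without mutant 1 of the Sox9Cre experiment. The length correction without control 2 gave 2317. The cause of these changes was not tested.

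Whether replicate numbers pair the libraries could not be settled from 3 libraries per group. Deviations of same-numbered libraries correlated at 0.303, 0.049 and 0.0126 in the Vangl1/2, 0.073, -0.0732 and -0.223 in the Dermo1Cre and 0.0535, 0.132 and -0.12 in the Sox9Cre experiment. With the replicate block 0, 16 and 0 genes passed, with 0 cartilage genes among them.

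None of the differences that changed direction had passed the test. Col9a1 in the Vangl1/2 experiment was at -0.026 and turned to 0.0058 by edgeR, 0.014 by DESeq2 and 0.099 with the length correction without control 2, with -0.34 to 0.18 over single libraries left out. Matn4 turned to -0.038 with the length correction and -0.034 with control 2 left out as well, with -0.23 to 0.21 over single libraries, and Sox9 to -0.049 in the latter. With Dermo1Cre, Col2a1 turned to 0.015 by edgeR and 0.018 by DESeq2 (-0.16 to 0.11 over single libraries) and Hapln1 to -0.052 with the length correction (-0.059 to 0.085). Over single libraries, Col9a1 ranged from -0.028 to 0.59, Acan from -0.0026 to 1.13 and Matn4 from -0.16 to 0.06. With Sox9Cre, Hapln1 turned to 0.016 with the length correction (-0.11 to 0.044 over single libraries), Sox5 ranged from -0.11 to 0.15 and Sox6 from -0.23 to 0.035. In the stage comparison Acan was at -0.33, and it was 0.03 without Sox9Cre control 3 and 0.52 against the Vangl1-/- controls. The median stage difference ranged from -0.030 to 0.10 over single libraries and was 0.092 against the Vangl1-/- controls. Acan and Matn1 are limited by depth, with at most 28 reads and 1 read in a library.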
